A study of Mus musculus with 18 samples.

Results

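The 7 genes *Slc1a2*, *Slc1a3*, *Glul*, *Aqp4*, *Gja1*, *Gjb6* and *Slc6a11* encode glutamate, water, gap-junction and GABA transport proteins by which astrocytes are commonly recognised. They were taken by symbol from the 30905 genes that every library lists. Each was read in astrocyte nuclei and, beside them, in the nuclei of the other cell types. The nuclei came from hippocampus (Hip) and prefrontal cortex (PFC), dissected from 9 Kun Ming mice harvested at 8 weeks, as 18 droplet-based single-nucleus libraries, 1 per mouse and region. Germ-free (GF) mice (mice 5, 6 and 7) lived in sterile film isolators, specific pathogen-free (SPF) mice (mice 30, 31 and 32) were raised outside them, and colonized germ-free (CGF) mice (mice 17, 18 and 19) were GF mice that shared an isolator with SPF mice from their juvenile age until harvest. SPF mice differed from GF mice in housing as well as in microbiota, so these cannot be told apart in a comparison of GF with SPF. CGF and GF mice were both kept in isolators. Nuclei were taken from frozen tissue, so the values are nuclear RNA and not protein. The comparisons asked how the absence of a gut microbiota, and its introduction by co-housing, went with these genes in the 2 regions.

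Astrocytes take up the glutamate that neurons release through the transporters encoded by *Slc1a2* and *Slc1a3*, and glutamine synthetase, encoded by *Glul*, turns it into glutamine that is passed back to neurons. *Aqp4* encodes the water channel that lines the endfeet of astrocytes on blood vessels, and *Gja1* and *Gjb6* encode the connexins that join astrocytes through gap junctions into a network. *Slc6a11* encodes a transporter that removes GABA, the main inhibitory transmitter, from the space around synapses.

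The genes lie on different chromosomes of the mouse genome (GRCm38), and none overlaps another listed gene on its own strand. *Slc1a2* lies at chr2:102658659-102790784 (plus strand), *Slc1a3* at chr15:8634124-8710764 (minus strand) and *Glul* at chr1:153899944-153909723 (plus strand). *Gja1* lies at chr10:56377330-56402513 (plus strand), *Gjb6* at chr14:57123303-57133611 (minus strand) and *Slc6a11* at chr6:114131241-114249952 (plus strand). The 250 bases before the start of both connexin genes are shown because these genes moved together in GF mice in the results. They come from RefSeq (GRCm38.p6), which held such a window for 6 of the 7 genes, and run 5′ to 3′ on the strand of the gene, with matches to TGACG, the core of the cAMP response element, in capitals.
Gja1 (chr10:56377050-56377299, plus strand): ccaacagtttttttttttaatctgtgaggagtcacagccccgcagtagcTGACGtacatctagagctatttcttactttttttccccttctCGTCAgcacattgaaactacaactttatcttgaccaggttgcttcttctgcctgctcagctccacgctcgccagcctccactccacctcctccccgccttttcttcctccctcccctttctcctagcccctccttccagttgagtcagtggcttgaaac
Gjb6 (chr14:57133612-57133861, minus strand): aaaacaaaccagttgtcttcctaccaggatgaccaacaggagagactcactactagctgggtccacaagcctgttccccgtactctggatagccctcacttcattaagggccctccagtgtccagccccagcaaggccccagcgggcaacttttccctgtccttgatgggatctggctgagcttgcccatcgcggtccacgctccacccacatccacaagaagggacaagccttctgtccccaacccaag
TGACG was searched on both strands, as were 4 other motifs, and none of the matches marked here overlaps another. Among them was TTGGC, the site for one arm of a nuclear factor I dimer, found in 41.5% of the 32851 promoter windows of the same length. The core ACAAAG of sites for SOX factors stood in 16.5% of windows. The site TTCNNNGAA of STAT factors stood in 7.02%. The TATA box, as TATAAA, stood in 12.4%, and TGACG itself in 17.8%. The *Gja1* window held TGACG at 201 and 159 bases before the start, the latter on the opposite strand, and no other of these motifs. The *Gjb6* window held none of these letters. The share of G and C was 50% for *Gja1* and 56.8% for *Gjb6*, against a median of 52.4% over all windows.

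Of 139924 barcodes, 138000 nuclei passed the limits of at least 200 genes and at most 10% mitochondrial unique molecular identifiers (UMIs). Astrocytes were the clusters led by 14 marker genes such as *Gpc5*, *Slc4a4* and *Aldh1l1*, none of them among the 7 genes, and the 7 genes and 52 related genes were kept out of the clustering. They were 6561 nuclei in Hip (1763 GF, 2148 SPF and 2650 CGF) and 5659 in PFC (1879 GF, 1746 SPF and 2034 CGF), and all 14 markers were raised in each of the 4 astrocyte clusters. GF astrocytes stood apart from the others. In Hip, 1671 of the GF nuclei lay in a cluster with 41 SPF and 26 CGF nuclei, and the other cluster held 92 GF, 2107 SPF and 2624 CGF nuclei. In PFC, 1867 GF nuclei formed a cluster of their own, and the other held 12 GF, 1746 SPF and 2034 CGF nuclei. Depth moved with the groups in PFC, where GF libraries had medians of 6721 to 7338.5 UMIs per nucleus and SPF and CGF libraries 2330 to 3187. In astrocytes of PFC, the medians were 2528 to 2724.5 UMIs in GF mice, 1019 to 1059 in SPF mice and 1020 to 1228 in CGF mice. In Hip they were closer, at 2222.5 to 2378.5, 2743 to 3272 and 2524 to 3033. Mitochondrial UMIs were higher in SPF (1.66% to 3.22%) and CGF (1.28% to 2.24%) than in GF libraries (0.359% to 0.594%) of PFC. In Hip the GF libraries were the highest instead, at 0.645% to 1.10%, against 0.128% to 0.471% for SPF libraries and 0.0770% to 0.218% for CGF libraries, and the part of the mitochondrial share in the changes of Hip was not tested. In PFC, depth and colonization state therefore cannot be told apart from the libraries alone. Astrocyte medians of GF mice in Hip also lay apart, below those of all SPF and CGF mice, so the same holds there. The part of depth in the changes of either region was not tested. Each library was also thinned at 1 rate to a single mean depth, which evens the counting error and leaves the expected fold change as it was. Of the nuclei in the shared SPF and CGF cluster of PFC, 6.94% scored as likely doublets, against 0.803% in the GF cluster. A cluster of 515 nuclei of Hip with all 14 markers raised but at a low level (59 GF, 229 SPF and 227 CGF) and 2 clusters that were mostly likely doublets (146 GF, 127 SPF and 178 CGF nuclei in Hip, 248 GF, 1 SPF and 0 CGF in PFC) were left out of the astrocytes by a threshold set after the data were seen. Libraries shared 6 to 29 barcodes per pair, at most 0.362% of the smaller library.

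Levels were read as CPM, the UMIs of a gene per 1000000 UMIs of the cell type in a library. For levels across cell types, a type needed at least 20 nuclei in a library. This left 7 libraries for ependymal and for choroid plexus cells of Hip. Both *Slc1a2* and *Slc6a11* were higher in astrocytes than in every other named cell type of the same region in every library, and the other 5 genes came close to or above their astrocyte level in another cell type of at least 1 region. Because the astrocyte and other clusters were chosen from the same nuclei, these levels are a description without a test. *Slc1a2* had a mean of 6370.5 ± 1038 CPM (SD over 9 libraries) in astrocytes of Hip and 5059 ± 1096 in PFC. The next cell types were endothelial cells in Hip (775 ± 317) and excitatory neurons in PFC (549 ± 111). *Slc6a11* reached 271 ± 46.8 CPM in Hip and 238 ± 39.2 in PFC. *Slc1a3* was shared with microglia, the resident immune cells of the brain. It had 2297 ± 286 CPM in astrocytes and 2741 ± 703 in microglia of Hip, and 2166 ± 312 and 1699 ± 512 in PFC, which over all 9 mice lay within their spread. Within groups, microglia lay above astrocytes without overlap in CGF mice of Hip (2726 to 4074 against 2323 to 2595) and below them in SPF mice of PFC (1419 to 1439 against 1837 to 2283).

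*Glul* was found in many cell types. In Hip, its mean was 378 ± 62.8 CPM in astrocytes and 329.7 ± 114 in endothelial cells, which line the vessels. In PFC, it was 567 ± 50.5 in astrocytes and 287 ± 91.3 in oligodendrocytes, the myelin-forming cells. *Aqp4* in Hip was 217 ± 48.1 CPM in astrocytes and 206 ± 69.3 in ependymal cells (7 libraries), the lining of the ventricles. These neighbours did not differ beyond their spread. In PFC, where no ependymal cluster was named, the next cell type for *Aqp4* after astrocytes (149 ± 82.5) was oligodendrocyte precursor cells (OPC) at 10.4 ± 7.12 CPM. The connexins were shared with fibroblasts of the vessels and meninges. *Gjb6* was 149 ± 31.96 CPM in fibroblasts and 94.0 ± 28.5 in astrocytes of Hip, and 124 ± 37.9 and 90.0 ± 34.9 in PFC. *Gja1* was 389 ± 89.7 CPM in astrocytes, 199.7 ± 60.1 in ependymal cells and 175 ± 59.0 in fibroblasts of Hip, and 242 ± 119.8 in astrocytes and 264 ± 85.0 in fibroblasts of PFC.

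**Figure D1:**
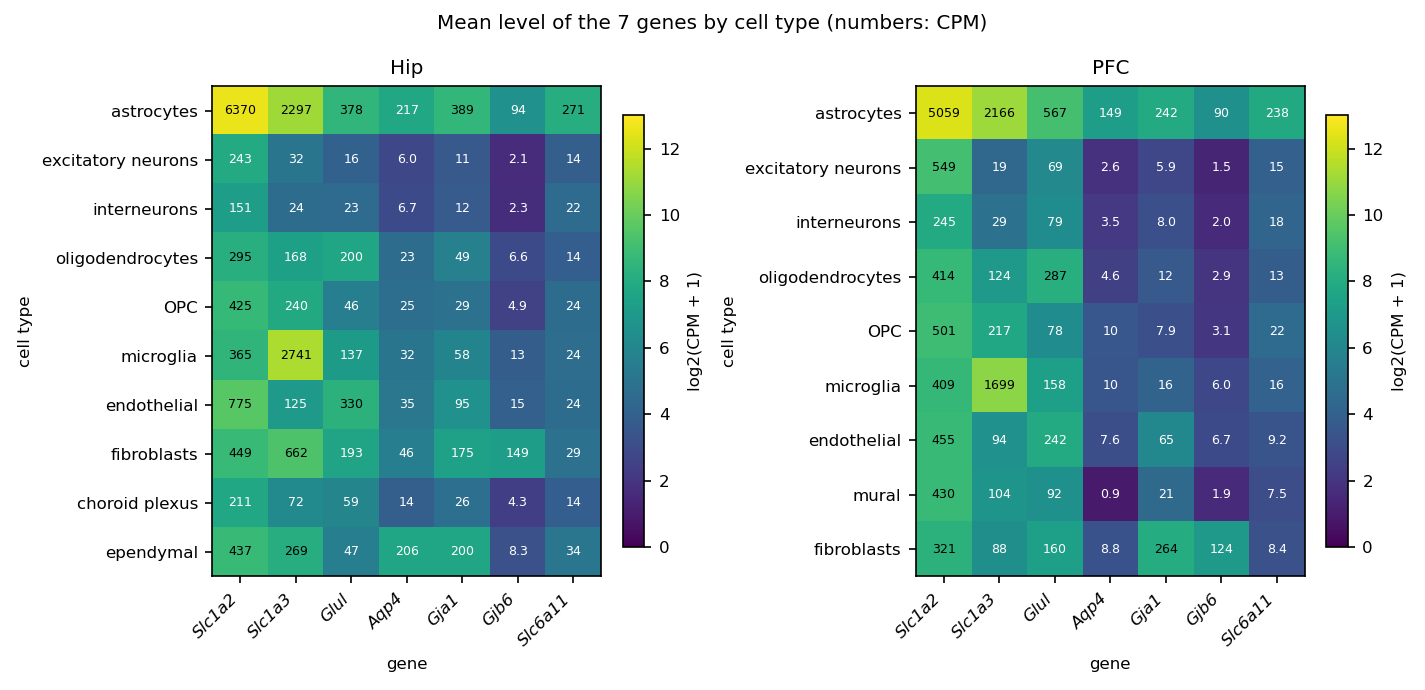
Mean level of the 7 genes (CPM of the UMIs of a cell type, colour on the log2(CPM + 1) scale) by cell type in Hip and PFC, averaged over the libraries. *Slc1a2* and *Slc6a11* peaked in astrocytes, *Slc1a3* was as high in microglia, and *Gjb6* was highest in fibroblasts.

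Levels were also ordered between genes per kilobase (kb) of gene span, since long genes can give more nuclear UMIs where intronic reads are counted. Whether they were counted is not given, so this order rests on an assumption. In CPM, *Slc1a2* stood above *Glul* in astrocytes of SPF mice in PFC, at 4257 against 570. In astrocytes of SPF mice in Hip, *Slc1a2* led with 45.5 CPM per kb, followed by *Glul* (37.3) and *Slc1a3* (31.1). Far below came *Gja1* (12.6), *Aqp4* (8.83), *Gjb6* (7.27) and *Slc6a11* (2.18). In SPF mice in PFC, *Glul* led with 58.2 CPM per kb, ahead of *Slc1a2* (32.2) and *Slc1a3* (27.7), and *Aqp4* was at 3.87. The gene spans ran from 9.78 kb for *Glul* to 132 kb for *Slc1a2*.

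Of all UMIs of the 7 genes in the kept nuclei, 45.9% ± 4.99 (SD, 9 mice) lay in astrocyte nuclei of Hip and 30.0% ± 5.54 in PFC. *Slc1a3* and *Aqp4* had the largest parts of their UMIs in astrocytes of PFC, at 55.1% ± 2.67 and 55.4% ± 9.22, and *Glul* the smallest mean over the 9 mice, at 23.04% ± 9.505, although in GF mice *Slc1a2* was below it (29.7% ± 3.38 against 34.0% ± 2.25). In PFC, the share over all 7 genes was 34.6% ± 2.40 in GF mice, 23.8% ± 1.87 in SPF mice and 31.5% ± 4.55 in CGF mice (exact permutation test over the 3 groups, adjusted p = 0.0429 over the 2 regions). In Hip, it was 42.3% ± 2.69, 44.4% ± 5.26 and 51.1% ± 0.850 (exact permutation test, adjusted p = 0.0607). With nuclei chosen one by one, the share over the 9 mice was 23.1% in Hip and 19.02% in PFC, where the test no longer passed (exact permutation test, adjusted p = 0.05). Without likely doublets it was 50.7% in Hip, where the test passed (exact permutation test, adjusted p = 0.0429). *Glul* had the widest gap, with 34.0% ± 2.25 in GF and 13.4% ± 1.08 in SPF mice of PFC. The share mixes the number of astrocyte nuclei with the level per nucleus. Astrocytes made up 6.90% ± 1.08 (SD, n = 3) of nuclei in GF mice, 9.53% ± 0.849 in SPF mice and 11.3% ± 0.300 in CGF mice of Hip, and 7.62% ± 0.492, 8.74% ± 1.06 and 9.21% ± 0.692 in PFC.

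In GF compared to SPF mice, both connexin genes and *Aqp4* were higher in astrocytes of Hip and PFC, and *Slc1a2* was higher in PFC. The 3 genes that rose in Hip did so by 1.43-fold to 1.75-fold, and the 4 that rose in PFC by 1.58-fold to 3.17-fold. None of the 7 passed as lower. In Hip, 3 of 7 genes passed the test (adjusted p under 0.05), against 30.8% of the 12610 genes tested in astrocytes (17.2% higher). In PFC, 4 of 7 passed, against 52.2% of 10951 genes (26.2% higher). The median log2 fold change of the 7 genes was 0.31 in Hip and 0.66 in PFC, and that of all genes tested was -0.02 and 0.02. The values of both groups were apart for 5 of 7 genes in Hip and 6 of 7 in PFC, as they were for 43.8% and 59% of all genes tested. The shares called were thus of the order of the background in Hip and PFC, where a large part of all genes in astrocytes passed the test.

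**Figure D2:**
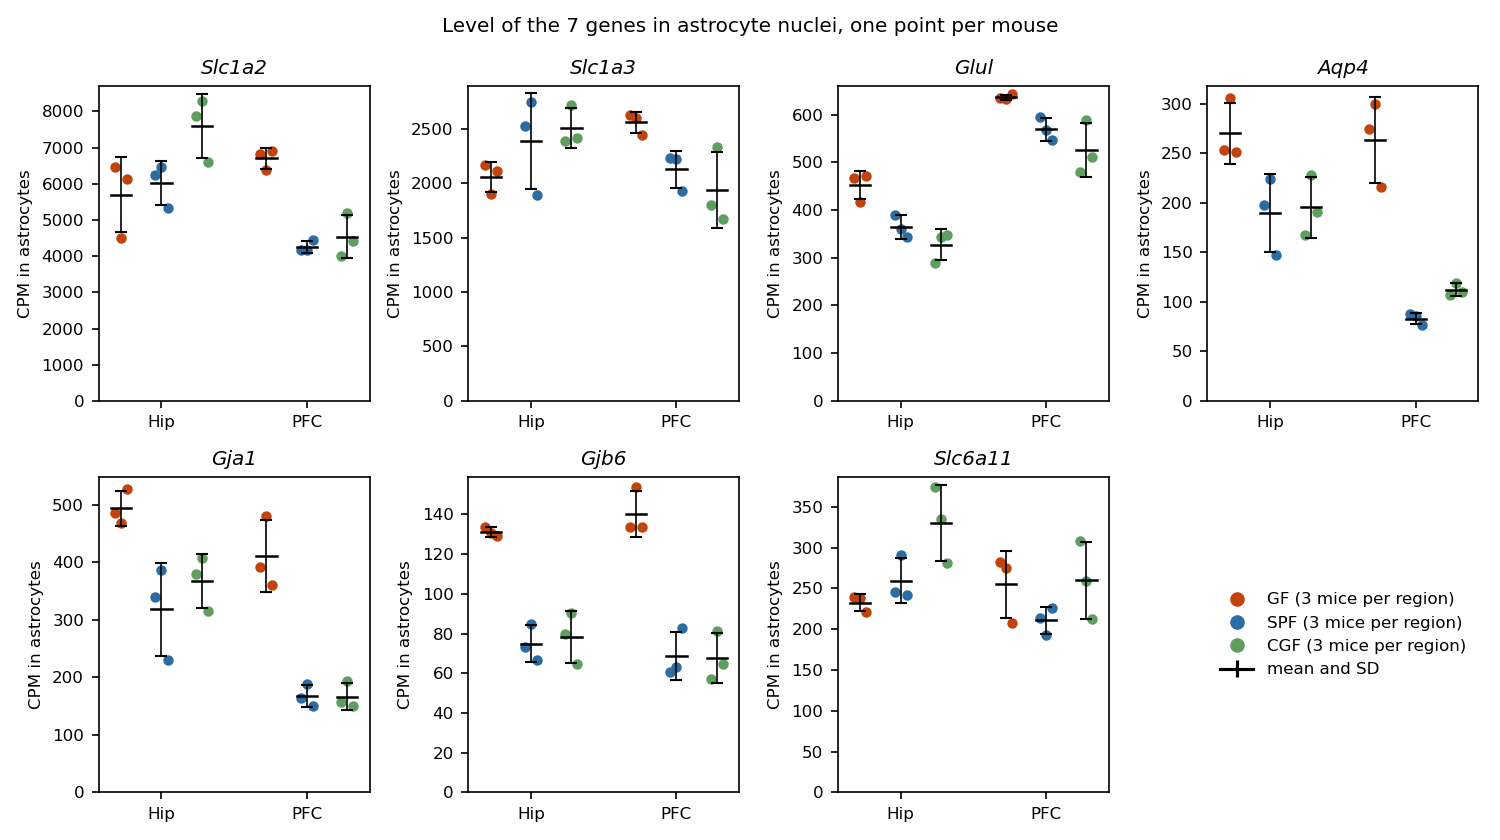
Level of each of the 7 genes in astrocytes (CPM, linear axis) in GF, SPF and CGF mice of Hip and PFC, with 1 point per mouse and the mean ± SD of 3 mice. *Aqp4*, *Gja1*, *Gjb6* and *Glul* lay higher in each GF mouse than in any SPF or CGF mouse of the same region. *Slc1a2* and *Slc1a3* did so in PFC. Of these, *Glul* in both regions and *Slc1a3* in PFC did not pass against SPF mice. Of all genes tested, 43.8% in Hip and 59% in PFC had no overlap between GF and SPF mice.

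Of the glutamate transporter genes, *Slc1a2* rose in PFC and *Slc1a3* passed in neither region. In Hip, *Slc1a2* was at 6472, 4508 and 6132 CPM in GF and 6252, 6461 and 5319.8 in SPF mice. The groups overlapped, with GF mouse 6 the lowest of all, and the difference did not pass (log2 fold change -0.08 ± 0.15 (SE), 95% interval -0.37 to 0.22, adjusted p = 0.736). In PFC, *Slc1a2* was at 6833, 6372 and 6916 CPM in GF and 4167, 4157 and 4445 in SPF mice. Every GF mouse lay above every SPF mouse, and the gene rose 1.58-fold (log2 0.66 ± 0.15, adjusted p = 0.000914). Its log2 fold change was 0.67 with libraries thinned to a single depth, 0.38 without likely doublets and 0.42 with nuclei chosen one by one by their markers, and it passed in all 20 alternatives run. *Slc1a3* was at 2164, 1903 and 2115 CPM in GF and 2523, 2747 and 1891 in SPF mice of Hip, which overlapped (log2 -0.21 ± 0.14, adjusted p = 0.267). Of 21 alternatives it passed there in 1, without SPF mouse 32, the lowest of its group, at -0.33 (adjusted p = 0.0498). In PFC, it was at 2628, 2602 and 2444 CPM in GF and 2228, 2221 and 1930.3 in SPF mice. These groups did not overlap, and the difference still missed the threshold (log2 0.27 ± 0.15, adjusted p = 0.143).

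*Glul*, for glutamine synthetase, was close to the threshold in Hip, at 467, 418 and 470.4 CPM in GF and 391, 360.3 and 343 in SPF mice. All GF mice lay above all SPF mice, and the log2 fold change was 0.31 ± 0.12 (1.24-fold, adjusted p = 0.0570). The call of *Glul* in Hip depended on the processing. It passed without likely doublets (0.39, adjusted p = 0.0125), with nuclei chosen one by one (0.40, adjusted p = 0.0152), without CGF mouse 17 (0.33, adjusted p = 0.0471), CGF mouse 19 (0.32, adjusted p = 0.0494) or GF mouse 6 (0.38, adjusted p = 0.0364), and with the cluster of low astrocyte markers added after the data were seen (0.42, adjusted p = 0.0131). After removing how each library's counts depend on gene length and GC content (the length and GC trend) it was -0.04. In PFC, *Glul* was at 634, 632 and 642 CPM in GF and 594, 569 and 546 in SPF mice. The GF mice lay close to each other and above all SPF mice, and the log2 fold change of 0.16 ± 0.13 did not pass (adjusted p = 0.323). Over the alternatives in PFC, the sign changed in 7 values, all without a call. These fell among the genes not called there, *Slc1a3*, *Glul* and *Slc6a11*, so directions among these genes depended on the processing.

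*Aqp4*, for the water channel, had the largest rise of the 7 genes in PFC. It was at 275, 299.5 and 216 CPM in GF and 87.4, 85.5 and 76.6 in SPF mice there. The SPF values rested on 59 to 74 UMIs per library. The lowest GF mouse had more than 2 times the level of the highest SPF mouse, and *Aqp4* rose 3.17-fold (log2 1.66 ± 0.16, 95% interval 1.36 to 1.97, adjusted p = 4.16e-09). The log2 fold change was 1.62 with libraries thinned to a single depth, 1.32 without likely doublets and 1.27 without the length and GC trend, and it passed in all 20 alternatives run. In Hip, *Aqp4* was at 254, 305 and 251 CPM in GF and 197, 224 and 147 in SPF mice. The groups did not overlap, and the gene rose 1.43-fold (log2 0.51 ± 0.16, adjusted p = 0.0251). This call was lost without GF mouse 6 (0.44, adjusted p = 0.0771), SPF mouse 30 (0.54, adjusted p = 0.0570) or SPF mouse 32 (0.37, adjusted p = 0.0721), and it held in the other 18 alternatives.

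Both connexin genes rose in both regions. *Gja1*, whose window shown above holds 2 matches to TGACG, was at 485, 469 and 528 CPM in GF and 339, 386 and 229 in SPF mice of Hip. GF mice lay close together and above all SPF mice, of which mouse 32 was the lowest, and the rise was 1.56-fold (log2 0.64 ± 0.17, adjusted p = 0.00978). In PFC, *Gja1* was at 392, 480.2 and 360.0 CPM in GF and 165, 188 and 149.998 in SPF mice. Again no values overlapped, and the rise was 2.45-fold (log2 1.29 ± 0.15, adjusted p = 1.52e-07). *Gjb6*, whose window held none of the motifs, was at 134, 131 and 129 CPM in GF and 73.4, 84.9 and 66.6 in SPF mice of Hip. The 3 GF mice lay close together, far from the SPF range, and the rise was 1.75-fold (log2 0.81 ± 0.14, adjusted p = 0.000870). In PFC, *Gjb6* was at 133, 154 and 133 CPM in GF and 60.8, 63.2 and 82.8 in SPF mice, and it rose 2.00-fold (log2 1.003 ± 0.17, adjusted p = 1.75e-05). Both genes passed in all 21 alternatives run in Hip and all 20 in PFC. The log2 fold change of *Gjb6* shrank to 0.48 in Hip and 0.62 in PFC without the length and GC trend, and to 0.65 in PFC without likely doublets.

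*Slc6a11*, for the GABA transporter, did not pass in either region. In Hip, it was at 239, 238 and 221 CPM in GF and 245, 291 and 241 in SPF mice. All GF mice lay below all SPF mice, the nearest of them by little, and the log2 fold change was -0.16 ± 0.13 (95% interval -0.41 to 0.10, adjusted p = 0.374). In PFC, it was at 282, 275 and 208 CPM in GF and 213, 193 and 226 in SPF mice. The groups overlapped (log2 0.27 ± 0.16, adjusted p = 0.156). Without the length and GC trend of each library, *Slc6a11* passed in PFC at a log2 fold change of 0.82 (adjusted p = 0.000107). With libraries thinned to a single depth, the log2 fold changes of GF against SPF in PFC were 1.27 for *Gja1*, 1.02 for *Gjb6*, 0.27 for *Slc1a3*, 0.14 for *Glul* and 0.32 for *Slc6a11*, and no call of the 7 genes changed. Such thinning leaves the expected fold change as it was, so it does not test the part of depth.

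**Figure D3:**
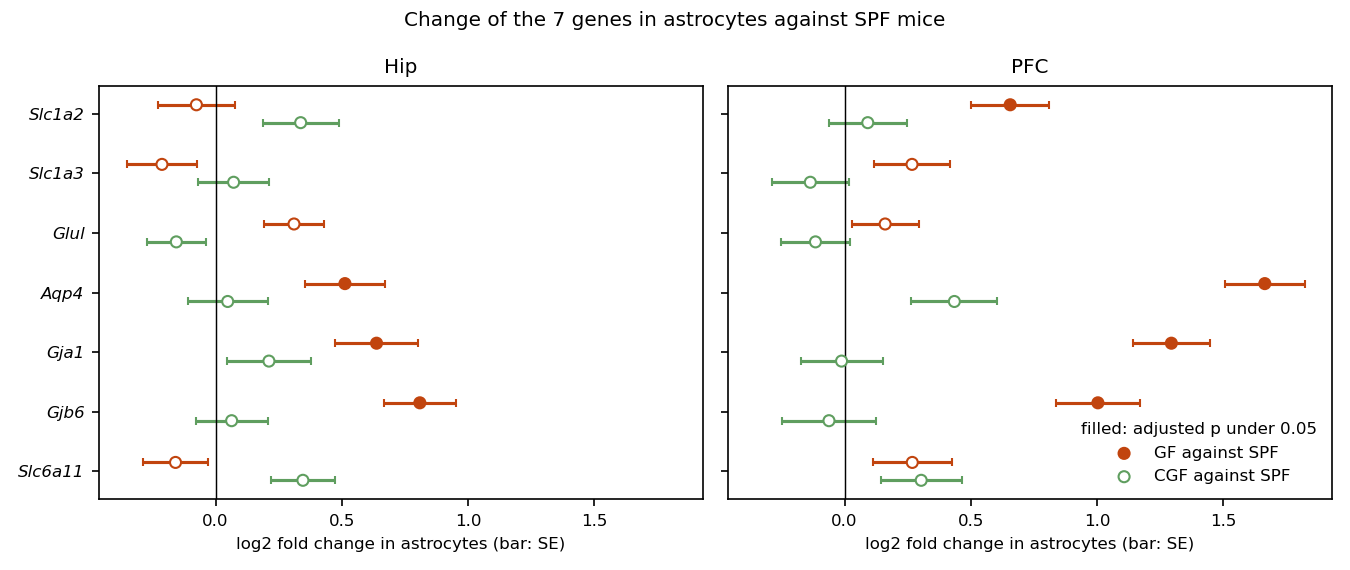
Log2 fold change ± SE of the 7 genes in astrocytes, GF against SPF and CGF against SPF, in Hip and PFC, with filled points for an adjusted p under 0.05. Filled points stand only in the comparison of GF with SPF, for *Aqp4*, *Gja1* and *Gjb6* in both regions and *Slc1a2* in PFC.

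In CGF compared to SPF mice, none of the 7 genes passed the test in either region with edgeR, nor with DESeq2. Few genes of any kind did, 0.0397% of those tested in Hip and 0.274% in PFC. This comparison shares the SPF libraries with the comparison of GF with SPF. The genes with an unadjusted p under 0.05 (edgeR) were *Slc1a2* and *Slc6a11* in Hip and *Aqp4* in PFC. They were not compared with the share of all genes at this looser threshold. In Hip, *Slc1a2* was at 7874, 8302 and 6605 CPM in CGF mice, all above the SPF mice (log2 0.34 ± 0.15, adjusted p = 0.555). *Slc6a11* was at 374, 335 and 281 CPM, of which 1 mouse lay within the SPF range (log2 0.35 ± 0.13, adjusted p = 0.434). In PFC, *Aqp4* was at 107, 119 and 110.2 CPM, all above the SPF and below the GF mice (log2 0.43 ± 0.17, 95% interval 0.10 to 0.77, adjusted p = 0.389). Without overlap stood 1 of 7 genes in each region, against 14% and 12.9% of all genes tested. The connexin genes, which were higher in GF mice, had intervals around 0 here. *Gja1* had a log2 fold change of 0.21 ± 0.16 (95% interval -0.11 to 0.53) in Hip and -0.01 ± 0.16 (-0.33 to 0.31) in PFC. *Gjb6* had 0.06 ± 0.14 (-0.22 to 0.34) and -0.06 ± 0.19 (-0.43 to 0.30). These intervals do not test CGF against GF mice, a comparison in which *Gja1* missed the threshold in Hip (edgeR, adjusted p = 0.0596). *Slc1a3* was at 0.07 in Hip and -0.14 in PFC, and *Glul* at -0.16 and -0.12.

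GF were also compared to CGF mice, which were kept in isolators too, with the same GF libraries as before. In Hip, *Glul*, *Aqp4* and *Gjb6* were higher and *Slc1a2* and *Slc6a11* lower in GF mice (5 of 7 genes called, against 32.8% of all genes). *Gjb6* was at 134, 131 and 129 CPM in GF and 79.8, 90.3 and 64.5 in CGF mice (log2 0.75 ± 0.14, adjusted p = 0.00118). *Glul* was at 467, 418 and 470.4 CPM in GF and 289, 343 and 348 in CGF mice (log2 0.47 ± 0.12, adjusted p = 0.00747). *Slc6a11* was at 239, 238 and 221 CPM in GF and 374, 335 and 281 in CGF mice (log2 -0.50 ± 0.13, adjusted p = 0.00797). No GF mouse overlapped the CGF mice for any of the 7 genes, as for 46.5% of all genes. The calls of *Glul* and *Slc6a11* were lost without the length and GC trend, at 0.13 (adjusted p = 0.475) and -0.25 (adjusted p = 0.201). *Aqp4* (log2 0.46 ± 0.16, adjusted p = 0.0362) and *Slc1a2* (-0.41 ± 0.15, adjusted p = 0.0481) were near the threshold. *Slc1a2* lost its call without likely doublets, with nuclei chosen one by one, with the 6 mice of both groups alone, with the cluster of low astrocyte markers added or without CGF mouse 17, CGF mouse 18, GF mouse 7 or SPF mouse 30 (log2 -0.29 to -0.47, adjusted p = 0.0527 to 0.172), without the length and GC trend (-0.02, adjusted p = 0.959) and without GF mouse 6 (-0.25, adjusted p = 0.173). *Aqp4* lost it at a finer clustering or without CGF mouse 17, CGF mouse 19, GF mouse 5, GF mouse 6, GF mouse 7 or SPF mouse 30 (log2 0.38 to 0.51, adjusted p = 0.0515 to 0.125). *Gja1* missed the threshold (log2 0.43 ± 0.16, adjusted p = 0.0596) and passed without the length and GC trend, without likely doublets, with no filter on low counts, with the 6 mice of both groups alone, with no TMM scaling or without SPF mouse 31 or SPF mouse 32 (log2 0.41 to 0.56, adjusted p = 0.0120 to 0.0393) and with nuclei chosen one by one (0.67, adjusted p = 0.000356).

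In PFC, *Aqp4*, *Gja1*, *Gjb6*, *Slc1a2* and *Slc1a3* were higher in GF than in CGF mice (5 of 7 genes, against 52.5% of all genes). *Aqp4* was at 275, 299.5 and 216 CPM in GF and 107, 119 and 110.2 in CGF mice (log2 1.23 ± 0.15, adjusted p = 2.00e-07). *Gja1* was at 392, 480.2 and 360.0 CPM in GF and 157, 193 and 149 in CGF mice (log2 1.31 ± 0.15, adjusted p = 1.08e-07). *Gjb6* was at 133, 154 and 133 CPM in GF and 57.0, 81.3 and 64.6 in CGF mice (log2 1.06 ± 0.16, adjusted p = 6.06e-06). Every GF value lay above every CGF value for these 3 genes and likewise for *Slc1a2*, *Slc1a3* and *Glul*, which makes 6 of 7. Such a full separation, in either direction, was found for 58.9% of all genes tested. *Aqp4*, *Gja1* and *Gjb6* passed in all 20 alternatives run. *Slc1a2* (log2 0.56 ± 0.15, adjusted p = 0.00340) lost its call without likely doublets (0.31, adjusted p = 0.0958) and with nuclei chosen one by one (0.31, adjusted p = 0.0798). *Slc1a3* (log2 0.40 ± 0.15, adjusted p = 0.0287) lost it there too, at 0.11 (adjusted p = 0.554) and 0.11 (adjusted p = 0.580). *Slc1a3* also lost it without CGF mouse 17 (0.35, adjusted p = 0.105), CGF mouse 19 (0.29, adjusted p = 0.150), GF mouse 5 (0.38, adjusted p = 0.0706), GF mouse 6 (0.41, adjusted p = 0.0560) or GF mouse 7 (0.43, adjusted p = 0.0516). *Glul* did not pass (log2 0.28 ± 0.13, adjusted p = 0.0841) except without CGF mouse 18, at 0.35 (adjusted p = 0.0408). *Slc6a11* did not pass (log2 -0.04 ± 0.15, 95% interval -0.33 to 0.26), but turned to 0.48 (adjusted p = 0.00984) without the length and GC trend. With libraries thinned to a single depth, the log2 fold changes of GF against CGF were 1.18 for *Aqp4*, 1.27 for *Gja1*, 1.03 for *Gjb6*, 0.58 for *Slc1a2* and 0.40 for *Slc1a3*, and no call of the 7 genes changed. Here too, thinning leaves the expected fold change as it was and does not test the part of depth.

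The difference between the regions in the change of GF against SPF was tested as an interaction over all 18 libraries, without pairing the regions of a mouse. It passed for *Slc1a2* and *Aqp4* (2 of 7 genes, against 31.4% of all genes), whose log2 fold change was larger in PFC. For *Aqp4*, the change in Hip minus that in PFC was -1.09 ± 0.23 (SE, 95% interval -1.53 to -0.64, adjusted p = 0.000780), and it lost its call with nuclei chosen one by one (-0.63, adjusted p = 0.0842). For *Slc1a2*, it was -0.67 ± 0.20 (95% interval -1.07 to -0.27, adjusted p = 0.0141). That call was lost without GF mouse 6 (-0.57, adjusted p = 0.0510), without SPF mouse 31 (-0.62, adjusted p = 0.0528), without the length and GC trend (-0.40, adjusted p = 0.128), without likely doublets (-0.32, adjusted p = 0.237), with nuclei chosen one by one (-0.40, adjusted p = 0.0916) and with the mouse as a block and without the length and GC trend (-0.42, adjusted p = 0.0655). *Gja1* missed the threshold (log2 -0.59 ± 0.23, adjusted p = 0.0541) and passed with DESeq2 size factors, at a finer clustering, with at least 500 genes per nucleus, with no filter on low counts, with the mouse as a block, with no TMM scaling or without CGF mouse 19, GF mouse 7 or SPF mouse 32 (log2 -0.55 to -0.78, adjusted p = 0.00253 to 0.0472). Here the mouse as a block pairs both regions. *Slc6a11*, *Glul* and *Slc1a3* did not pass, except *Slc6a11* without the length and GC trend (-0.64, adjusted p = 0.0245) and with the mouse as a block and without the length and GC trend (-0.62, adjusted p = 0.00534), *Glul* without likely doublets (0.51, adjusted p = 0.0229) and *Slc1a3* with no filter on low counts (-0.58, adjusted p = 0.0147). For *Gjb6*, the difference was -0.13 ± 0.22 (95% interval -0.57 to 0.30, adjusted p = 0.693). The level of *Aqp4* differed little between regions in GF mice (log2 Hip minus PFC 0.08 ± 0.15) and was lower in PFC in SPF mice (1.16 ± 0.17). For *Slc1a2* these values were -0.20 ± 0.14 and 0.47 ± 0.14. Astrocytes of SPF mice were shallower in PFC than in Hip, and the part of depth in the interaction was not tested.

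Levels were then compared between Hip and PFC, scaled together over the 18 libraries. Both regions came from the same mice, but the test did not pair them except where the mouse is named as a block. *Glul* was lower in Hip in all 9 mice, with a difference of Hip minus PFC of -0.46 on the log2 scale in GF (adjusted p = 0.0139), -0.67 in SPF (adjusted p = 5.22e-05) and -0.69 in CGF mice (adjusted p = 2.96e-05). Of the 7 genes it alone passed in GF mice, at 454 ± 29.8 CPM in Hip and 622 ± 9.01 in PFC (SD, n = 3), where 7.65% of all genes were called. There the call of *Glul* was lost with nuclei chosen one by one or without GF mouse 5, GF mouse 6 or GF mouse 7 (log2 -0.37 to -0.51, adjusted p = 0.0514 to 0.160), and *Gja1* gained one with nuclei chosen one by one (0.47, adjusted p = 0.0421). In SPF mice, 4 of 7 genes passed (47.4% of all genes), *Glul* lower and the others higher in Hip. These others were *Aqp4* (log2 1.16 ± 0.17, adjusted p = 5.38e-06), *Gja1* (0.90 ± 0.17, adjusted p = 0.000124) and *Slc1a2* (0.47 ± 0.14, adjusted p = 0.00903). The call of *Slc1a2* was lost without SPF mouse 30 (0.44, adjusted p = 0.0683), without SPF mouse 31 (0.40, adjusted p = 0.0834), without the length and GC trend (0.26, adjusted p = 0.126), without likely doublets (0.19, adjusted p = 0.271), with nuclei chosen one by one (0.24, adjusted p = 0.110), with the mouse as a block and without the length and GC trend (0.26, adjusted p = 0.0810) and with the cluster of low astrocyte markers added (0.27, adjusted p = 0.147). *Slc6a11* in SPF mice (0.27 ± 0.15, adjusted p = 0.141) passed with no filter on low counts (0.39, adjusted p = 0.0323), without the length and GC trend (0.63, adjusted p = 0.00139) and with the mouse as a block and without the length and GC trend (0.62, adjusted p = 0.000101). In CGF mice, 5 of 7 passed (49.9% of all genes), again *Glul* lower and *Slc1a2*, *Slc1a3*, *Aqp4* and *Gja1* higher in Hip. *Gja1* had a log2 difference of 1.14 ± 0.17 (adjusted p = 4.05e-06) and *Aqp4* one of 0.80 ± 0.16 (adjusted p = 0.000212), a call lost with nuclei chosen one by one (0.42, adjusted p = 0.0612). *Slc1a3* (0.37 ± 0.14, adjusted p = 0.0331) lost its call without CGF mouse 17 (0.34, adjusted p = 0.138), without CGF mouse 19 (0.30, adjusted p = 0.176), without the length and GC trend (0.11, adjusted p = 0.515), without likely doublets (0.05, adjusted p = 0.802), with nuclei chosen one by one (-0.0032, adjusted p = 0.987), with the mouse as a block and without the length and GC trend (0.12, adjusted p = 0.389) and with the cluster of low astrocyte markers added (0.22, adjusted p = 0.235). *Slc6a11* in CGF mice (0.34 ± 0.15, adjusted p = 0.0563) passed with DESeq2, with DESeq2 size factors, with no filter on low counts, with the mouse as a block or without GF mouse 7 (log2 0.34 to 0.41, adjusted p = 0.0191 to 0.0474), without the length and GC trend (0.73, adjusted p = 0.000198) and with the mouse as a block and without the length and GC trend (0.74, adjusted p = 4.29e-06). *Gjb6* was called in no group, at -0.06, 0.08 and 0.22 in GF, SPF and CGF mice. Depth per nucleus of astrocytes differed little between the regions in GF mice and was lower in PFC in SPF and CGF mice, as given above. The part of depth in these differences between regions was not tested.

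Ratios of UMIs within a library do not depend on the scaling between libraries. The ratio of *Glul*, which makes glutamine, to *Slc1a2* plus *Slc1a3*, which bring in glutamate, was higher in GF than in SPF mice in Hip and lower in PFC in the UMIs as counted, but lower in both regions without the length and GC trend, in Hip without passing the test. Its mean and range over mice in Hip were 0.0588 (0.0541 to 0.0651) in GF mice, 0.0437 (0.0391 to 0.0475) in SPF mice and 0.0326 (0.0282 to 0.0386) in CGF mice. Those in PFC were 0.0687 (0.0670 to 0.0705) in GF mice, 0.0892 (0.0857 to 0.0929) in SPF mice and 0.0816 (0.0783 to 0.0839) in CGF mice. In each region the 3 groups did not overlap, GF being highest in Hip and lowest in PFC. The exact permutation test over the 3 groups gave p = 0.00357 in each region, the smallest it can give, and an adjusted p = 0.0107 over 6 tests. GF minus SPF was 0.43 in Hip and -0.38 in PFC on the log2 scale. The ratio sets a short gene against long ones, and it was recomputed with the length and GC trend of each library removed, an alternative chosen after the data were seen. GF minus SPF then turned to -0.26 in Hip (exact permutation test over the 3 groups, adjusted p = 0.164), with means of 0.0426 (0.0384 to 0.0476) in GF mice, 0.0510 (0.0452 to 0.0543) in SPF mice and 0.0385 (0.0344 to 0.0443) in CGF mice. For PFC the recomputed difference was -0.79 (exact permutation test, adjusted p = 0.0429). The direction in Hip thus depended on this step, and that in PFC did not. For a pair of groups of 3 mice an exact permutation test cannot go below p = 0.1. The ratio of *Slc1a2* to *Slc1a3* was 2.75 in GF mice, 2.55 in SPF mice and 3.03 in CGF mice of Hip (exact permutation test, adjusted p = 0.266). In PFC, it was 2.63, 2.02 and 2.36 (exact permutation test, adjusted p = 0.129), and without SPF mouse 32 the adjusted p was 0.0357. The ratio of the connexin genes, *Gja1* to *Gjb6*, was 3.77, 4.20 and 4.72 in Hip (exact permutation test, adjusted p = 0.145, and 0.0429 without SPF mouse 32). Its GF minus SPF in Hip turned to 0.24 without the length and GC trend (exact permutation test, adjusted p = 0.268). In PFC, the ratio was 2.92, 2.50 and 2.48 (exact permutation test, adjusted p = 0.443).

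**Figure D4:**
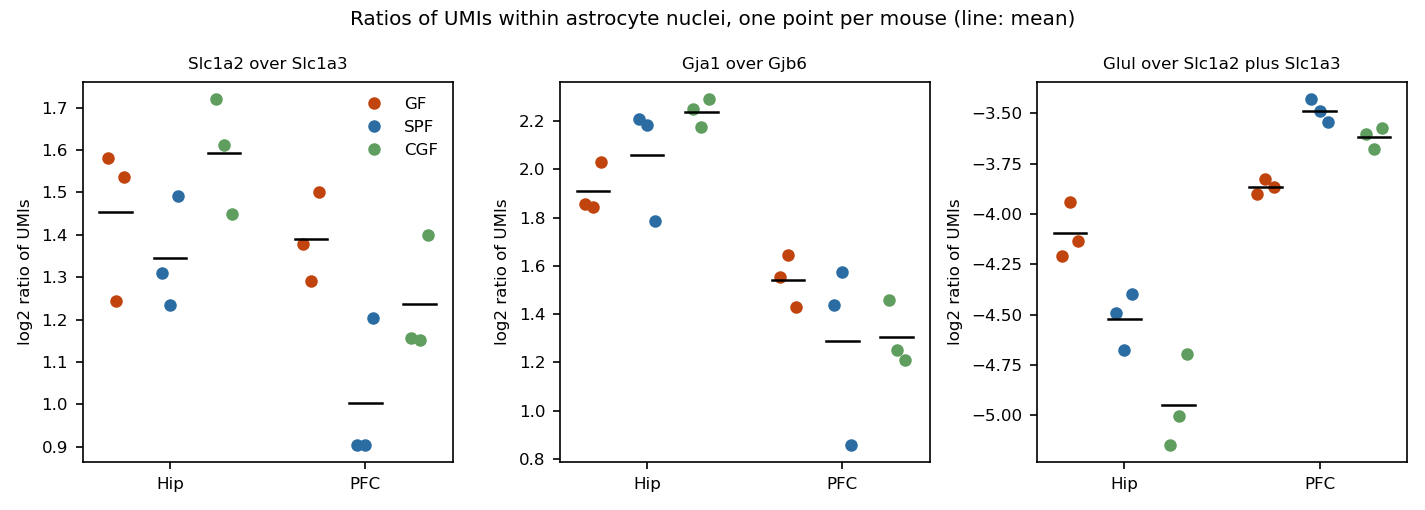
Log2 ratio of UMIs in astrocytes per mouse for *Slc1a2* over *Slc1a3*, *Gja1* over *Gjb6* and *Glul* over *Slc1a2* plus *Slc1a3*, in GF, SPF and CGF mice of Hip and PFC, with lines at the group means. The *Glul* ratio separated the 3 groups in both regions, with GF highest in Hip and lowest in PFC, and in Hip GF minus SPF turned to -0.26 without the length and GC trend, which is not drawn.

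The share of astrocyte nuclei with at least 1 UMI depends on depth, so each nucleus was also thinned to 500 UMIs, at which none was left out. After thinning, *Aqp4* was found in 10.1% ± 0.370 (SD, n = 3) of GF, 4.25% ± 0.669 of SPF and 5.66% ± 0.547 of CGF astrocytes of PFC. Unthinned, these shares were 39.1%, 9.52% and 11.4%. In excitatory neurons thinned alike, *Aqp4* was found in 0.159%, 0.213% and 0.166%, so the astrocyte shares stood well above those in neurons. GF were again highest for *Gja1* in PFC, with 16.6% ± 2.79, 9.31% ± 2.35 and 8.89% ± 0.395 after thinning and 59.1%, 19.4% and 18.6% before. *Gjb6* in PFC was found in 6.44% ± 1.52, 3.78% ± 0.843 and 4.18% ± 0.832 of thinned nuclei. *Glul* was found in 26.4% ± 1.36, 27.0% ± 2.22 and 24.6% ± 1.77 of thinned nuclei of PFC, and *Slc1a3* in 65.4% ± 2.78, 64.3% ± 4.83 and 60.5% ± 3.78. *Slc1a2* was in most astrocytes and highest in GF mice without overlap, at 93.5% ± 0.561, 85.7% ± 3.18 and 84.9% ± 3.59. In Hip, the thinned shares of *Aqp4* were 11.6% ± 1.48, 8.93% ± 0.796 and 7.95% ± 1.41 in GF, SPF and CGF mice. Those of *Gjb6* were 5.82% ± 1.02, 3.17% ± 0.203 and 3.33% ± 0.454. Those of *Slc6a11* were 10.8% ± 1.79, 11.9% ± 1.01 and 13.8% ± 3.11 in Hip and 10.6% ± 1.23, 10.8% ± 0.512 and 11.7% ± 2.41 in PFC. Excitatory neurons of Hip thinned alike had shares of 0.206%, 0.508% and 0.382% for *Aqp4* in GF, SPF and CGF mice. Their shares were 0.0810%, 0.160% and 0.113% for *Gjb6* and 0.550%, 0.906% and 0.833% for *Slc6a11*. In excitatory neurons of PFC thinned alike, the shares in GF, SPF and CGF mice were 1.01%, 6.42% and 3.88% for *Glul*, 19.4%, 28.003% and 24.6% for *Slc1a2* and 0.575%, 1.25% and 1.54% for *Slc1a3*. The shares of these 3 genes in neurons were lowest in GF mice. Whether they are foreign UMIs or RNA of the neurons was not tested, nor was the part of foreign UMIs in the astrocyte shares. For *Gja1* the shares in these neurons were 0.309%, 0.320% and 0.356%. For *Gjb6* they were 0.129%, 0.0831% and 0.0508%. For *Slc6a11* they were 0.636%, 0.878% and 0.796%.

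Outside astrocytes, the calls for the 7 genes were nearly all lower in GF than in SPF mice. Over the 5 other major cell types (excitatory neurons, interneurons, oligodendrocytes, OPC and microglia), 20 of 33 tested pairs of gene and cell type passed in Hip, 19 lower and 1 higher in GF than in SPF mice, and in PFC 12 of 23, all lower. In Hip, 12 pairs passed without the length and GC trend. Of all genes tested in Hip, 21.8% were lower in excitatory neurons, 16.4% in interneurons, 15.9% in oligodendrocytes, 8.24% in OPC and 11.4% in microglia. In PFC, these shares were 31.1%, 25.5%, 19.3%, 18.2% and 26.2%. Of the 7 genes, 5 passed in excitatory neurons of Hip and 4 in PFC (47.1% and 63.2% of all genes), and 3 of 7 and 3 of 6 in interneurons (36.4% and 52.6%). In oligodendrocytes it was 6 of 7 and 2 of 3 (36% and 38.5%), in OPC 3 of 6 and 2 of 4 (19.9% and 36.5%), and in microglia 3 of 6 and 1 of 3 (26.1% and 51.9%). *Gja1*, which rose in GF astrocytes, was lower in GF mice in all 5 other types of Hip. It was at 11.01 ± 6.61 CPM in GF and 34.0 ± 5.10 in SPF mice (log2 -1.66 ± 0.36, adjusted p = 0.00206) in OPC, a call lost with nuclei chosen one by one (-1.20, adjusted p = 0.0750). In microglia it was at 25.8 ± 9.91 CPM in GF and 73.8 ± 3.71 in SPF mice (log2 -1.505 ± 0.29, adjusted p = 0.000480). *Aqp4* was likewise lower in excitatory neurons of Hip, at 3.30 ± 0.568 CPM in GF and 7.53 ± 1.81 in SPF mice (log2 -1.19 ± 0.24, adjusted p = 0.00263). These levels are a small part of those in astrocytes, and whether they are UMIs of RNA free in the droplets was not tested. *Gjb6* passed in none of the other types in which it was tested.

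*Glul* had the largest log2 fold change among the tested pairs outside astrocytes, in excitatory neurons of PFC. In excitatory neurons of PFC, *Glul* ranged from 11.1 to 17.8 CPM in GF mice, 95.5 to 136 in SPF mice and 51.02 to 95.2 in CGF mice, whereas in Hip the ranges were 13.6 to 16.7, 11.3 to 25.1 and 11.9 to 16.8. In PFC, the GF mice were thus near the level of Hip, and SPF and CGF mice far above it. On the scale of the fit, it was at 16.2 ± 3.63 CPM in GF and 116 ± 23.3 in SPF mice (log2 -2.84 ± 0.25, adjusted p = 1.41e-06), and over the alternatives the log2 fold change stayed between -3.18 and -2.66 and passed in all. In interneurons of PFC, *Glul* was at 28.02 ± 5.10 CPM in GF and 129 ± 25.6 in SPF mice (log2 -2.20 ± 0.19, adjusted p = 6.30e-07). In OPC of PFC, it was at 39.6 ± 7.53 CPM in GF and 125 ± 50.0 in SPF mice (log2 -1.68 ± 0.25, adjusted p = 3.94e-06). In oligodendrocytes of PFC, it was at 232 ± 26.5 CPM in GF and 397 ± 83.4 in SPF mice (log2 -0.78 ± 0.18, adjusted p = 0.000760), a call lost at a finer clustering (-0.14, adjusted p = 0.574) and without likely doublets (-0.51, adjusted p = 0.0524). In oligodendrocytes of Hip, *Glul* was the only called pair that was higher in GF mice, at 259 ± 23.9 CPM in GF and 189.7 ± 14.2 in SPF mice (log2 0.45 ± 0.13, adjusted p = 0.0117), and it lost its call without GF mouse 7, SPF mouse 30 or SPF mouse 31 (log2 0.38 to 0.42, adjusted p = 0.0533 to 0.0582) and without the length and GC trend (0.02, adjusted p = 0.930). In microglia of PFC it did not pass (log2 -0.29 ± 0.19, adjusted p = 0.189), except without the length and GC trend (-0.95, adjusted p = 7.24e-05). The lower depth and higher mitochondrial share of SPF and CGF libraries of PFC moved with these *Glul* values across the groups. The part of either in them was not tested.

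The glutamate transporter genes were lower in GF mice in several types of neurons and glia. *Slc1a3* in excitatory neurons of PFC was at 8.60 ± 1.499 CPM in GF and 25.5 ± 2.51 in SPF mice (log2 -1.57 ± 0.14, adjusted p = 1.86e-06). *Slc1a2* in microglia of Hip was at 203 ± 31.9 CPM in GF and 506 ± 112 in SPF mice (log2 -1.32 ± 0.18, adjusted p = 1.25e-05), and in oligodendrocytes of Hip at 163 ± 25.4 CPM in GF and 353 ± 52.0 in SPF mice (log2 -1.13 ± 0.16, adjusted p = 4.56e-05). In interneurons of PFC, *Slc1a2* was at 170.1 ± 18.5 CPM in GF and 323 ± 39.0 in SPF mice (log2 -0.92 ± 0.14, adjusted p = 8.33e-05). All these levels lie far below those in astrocytes, and the part of RNA free in the droplets in them was not tested. Microglia, the other main site of *Slc1a3*, had it at 2237 ± 145 CPM in GF and 3028 ± 577 in SPF mice (log2 -0.44 ± 0.16, adjusted p = 0.0470) in Hip. This call was lost with DESeq2, with DESeq2 size factors, with nuclei chosen one by one, with libraries thinned to a single depth or without CGF mouse 17, CGF mouse 19, GF mouse 5, GF mouse 6 or GF mouse 7 (log2 -0.35 to -0.52, adjusted p = 0.0501 to 0.260), without the length and GC trend (-0.28, adjusted p = 0.225) and without SPF mouse 31 (-0.28, adjusted p = 0.225). In PFC, *Slc1a3* of microglia was at 2213 ± 476 CPM in GF and 1583 ± 32.1 in SPF mice (log2 0.48 ± 0.21, adjusted p = 0.0587), which did not pass, and it passed with no filter on low counts, with no TMM scaling or without CGF mouse 19 or GF mouse 5 (log2 0.47 to 0.65, adjusted p = 0.00910 to 0.0300) and with at least 500 genes per nucleus (0.79, adjusted p = 0.0118).

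**Figure D5:**
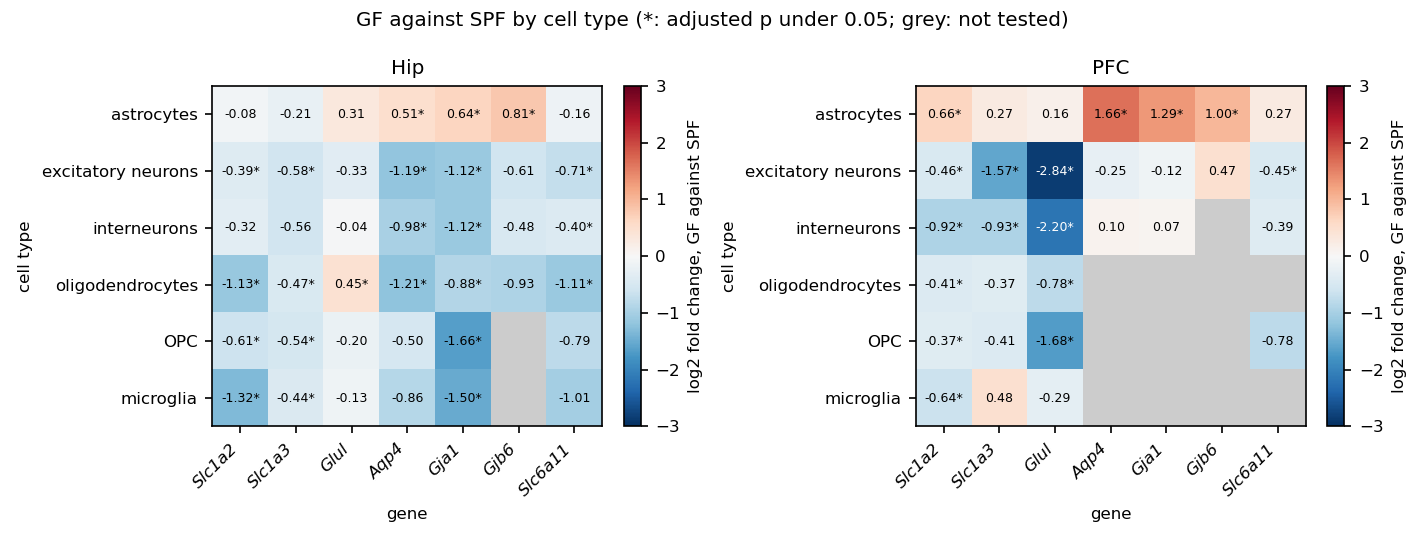
Log2 fold change of GF against SPF for the 7 genes in the 6 major cell types of Hip and PFC, with stars for an adjusted p under 0.05 and grey for pairs not tested. Rises that passed the test stood in the astrocyte row, with *Glul* in oligodendrocytes of Hip as the other one, and the lowest value was that of *Glul* in excitatory neurons of PFC (-2.84).

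Of 52 related genes of glutamate and glutamine, GABA, water, potassium and endfeet, and gap junctions (connexins, pannexins and the scaffold *Tjp1*), 38 were tested in astrocytes of Hip, where 4 were higher and 7 lower in GF than in SPF mice, against 30.8% of all genes called. In PFC, 34 were tested, of which 20 were higher and 6 lower, against 52.2% of all genes called and 26.2% higher. No related gene passed in CGF compared to SPF mice in either region. Among the 17 genes of water, potassium and endfeet, 15 were tested in Hip (3 higher, 3 lower, median log2 fold change -0.02) and 14 in PFC (10 higher, 1 lower, median 0.57). In Hip, *Mlc1*, a membrane protein of endfeet, was at 189 ± 21.1 CPM in GF and 97.4 ± 19.04 in SPF mice (log2 0.97 ± 0.15, adjusted p = 0.000333). *Atp1b2*, a sodium pump subunit of astrocytes, was at 296 ± 12.3 CPM in GF and 163 ± 34.2 in SPF mice (log2 0.86 ± 0.14, adjusted p = 0.000519), and without the length and GC trend its log2 fold change was 0.36 (adjusted p = 0.110). *Aqp9*, a channel for water and small solutes, rose in Hip (log2 0.96 ± 0.19, adjusted p = 0.00209) and in PFC (1.71 ± 0.22, adjusted p = 3.67e-07). *Kcnj16*, a potassium channel subunit, rose in PFC (log2 1.39 ± 0.37, adjusted p = 0.00286). *Slc12a2*, an ion cotransporter, fell in Hip (log2 -0.95 ± 0.17, adjusted p = 0.000862).

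Among the 17 genes of glutamate and glutamine, 15 were tested in each region. In Hip, 1 was higher and 3 lower (median log2 fold change -0.23), and in PFC 7 were higher and 5 lower (median 0.05). *Grm3*, a metabotropic glutamate receptor of astrocytes, was at 2588 ± 210.4 CPM in GF and 1006 ± 99.99 in SPF mice (log2 1.36 ± 0.15, adjusted p = 5.42e-08) of PFC. *Grm5*, another such receptor, fell in Hip (log2 -0.61 ± 0.16, adjusted p = 0.00918) and in PFC (-0.89 ± 0.15, adjusted p = 3.45e-05). The call of *Grm5* was lost in Hip without GF mouse 7 (-0.49, adjusted p = 0.0533) and without the length and GC trend (-0.07, adjusted p = 0.801), and in PFC without likely doublets (-0.13, adjusted p = 0.532) and with nuclei chosen one by one (-0.20, adjusted p = 0.313). *Slc38a3*, which exports glutamine from astrocytes, fell in PFC, at 176 ± 43.2 CPM in GF and 358 ± 20.6 in SPF mice (log2 -1.03 ± 0.16, adjusted p = 7.57e-06). *Gls2*, an enzyme of glutamine breakdown, fell in PFC (log2 -0.97 ± 0.40, adjusted p = 0.0417) with overlapping groups, and lost its call with DESeq2, without the length and GC trend, with no filter on low counts, with libraries thinned to a single depth or without GF mouse 5, GF mouse 6, SPF mouse 31 or SPF mouse 32 (log2 -0.68 to -0.98, adjusted p = 0.0597 to 0.212). *Slc1a6*, a glutamate transporter best known from Purkinje cells, fell in PFC (log2 -1.69 ± 0.39, adjusted p = 0.000833). *Arl6ip5*, a binding partner of a neuronal glutamate transporter, rose in Hip (log2 0.54 ± 0.17, adjusted p = 0.0255), a call lost without the length and GC trend or without GF mouse 5, GF mouse 6, GF mouse 7, SPF mouse 30 or SPF mouse 31 (log2 0.40 to 0.57, adjusted p = 0.0542 to 0.0903).

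Of the 6 GABA genes, 4 were tested in each region, of which 0 passed in Hip (median -0.04) and 2 were higher in PFC (median 0.59). Among these was *Maob*, a monoamine oxidase that takes part in GABA synthesis in astrocytes (log2 1.28 ± 0.22, adjusted p = 2.28e-05). Of the 12 gap-junction genes, 4 were tested in Hip and 1, the scaffold, in PFC, where no connexin or pannexin of the list was tested. *Gjc3*, a connexin of oligodendrocytes, fell in Hip (log2 -1.49 ± 0.47, adjusted p = 0.0251), from 8.87 ± 3.85 CPM in SPF to 3.00 ± 0.912 in GF mice. Its call was lost without GF mouse 5, GF mouse 6, SPF mouse 30 or SPF mouse 32 (log2 -1.19 to -1.45, adjusted p = 0.0546 to 0.0936). *Gjc3* belongs to the same cells as the oligodendrocyte markers, whose summed level in astrocytes of Hip was 295 to 391 CPM in GF and 489 to 722 in SPF mice, and the part of these UMIs in its fall was not tested. In PFC, the gene tested was *Tjp1*, a scaffold of junctions (log2 0.60 ± 0.14, adjusted p = 0.000720).

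The genes whose levels were most like those of the 7 genes across the named cell types were found by Pearson's r of log2(CPM + 1) over 19 points of cell type and region, among 4619 genes with at least 50 CPM in astrocytes. These points share libraries and depth, and r is a description. For *Slc1a2* they were *C030018K13Rik* (0.927), *Ttyh1* (0.925) and *Acsbg1* (0.920), and for *Slc1a3* *Crlf3* (0.919), *Mt3* (0.907) and *Mertk* (0.903), of which *Mertk* is a receptor that both astrocytes and microglia use to engulf material. For *Glul* they were *Tkt* (0.921), *Hmgcs1* (0.905) and *Gstm5* (0.898), which include *Hmgcs1* of cholesterol synthesis. For *Aqp4* they were *Gfap* (0.918), *Clu* (0.912) and *Sall2* (0.912), of which *Gfap* encodes the main filament protein of astrocytes. *Clu* stood near *Gja1* too, with *Gli3* (0.908), *Clu* (0.903) and *Slc41a1* (0.889). For *Gjb6* they were *Scara3* (0.937), *F3* (0.912) and *Ranbp3l* (0.909), and for *Slc6a11* *Pigs* (0.932), *Pou2f1* (0.902) and *Cpe* (0.901). *Acsbg1*, *Gli3* and *F3* were among the astrocyte markers used to name the clusters.

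Markers of other cell types were read in the astrocyte nuclei as a measure of foreign UMIs, and every marker of each list had UMIs there. The summed level of 7 markers of excitatory neurons was 1565 to 1576 CPM in GF and 965 to 1519 in SPF mice of Hip, and 1360 to 1642 and 1331 to 2038 in PFC (CPM of all markers of the list). The 8 markers of microglia summed to 118 to 150 CPM in GF and 57.7 to 84.5 in SPF mice of PFC, and the 5 of interneurons to 108 to 124 and 54.1 to 77.5. The 6 markers of OPC went the other way, at 31.7 to 52.5 CPM in GF and 72.4 to 109 in SPF mice of PFC. In Hip, these were at 37.8 to 53.6 and 69.4 to 77.5 CPM. The 7 fibroblast markers, of the cells with the highest *Gjb6*, summed to 13.3 to 50.3 CPM in GF and 29.6 to 48.2 in SPF mice of Hip, and in PFC to 11.6 to 29.2 and 11.8 to 18.2. The 7 ependymal markers, of the other cells with *Aqp4*, summed to 8.16 to 35.4 CPM in GF and 8.51 to 30.1 in SPF mice of Hip. The 7 choroid plexus markers varied most, from 19.3 to 5345 CPM in GF mice, 285 to 1718 in SPF mice and 22.9 to 768 in CGF mice of Hip. The 14 astrocyte markers themselves summed to less in GF (10071 to 14163 CPM) than in most SPF mice (13643 to 16953) of Hip, where 3 were called higher and 4 lower, and to more in PFC (11910 to 14495 against 9536 to 10572), where 8 were higher and 3 lower. The rise of *Slc1a2*, *Aqp4* and both connexin genes in PFC therefore stood beside a higher summed level of astrocyte markers, and that of *Aqp4* and the connexin genes in Hip did not. The part of the marker levels in these rises was not tested.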

How the data were processed

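The authors aligned reads to mm10 (Ensembl 92) and deposited, for each of the 18 libraries, UMI counts per gene and nucleus as Cell Ranger 3.1.0 wrote them (version from the file headers), neither normalized nor filtered further; CASAVA 1.8 is named in the submitters' processing notes. Whether intronic reads were counted is not given in the sources used here. Library totals ran from 20336250 to 71463928 UMIs.

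Nuclei needed at least 200 genes and at most 10% mitochondrial UMIs. Per region, 2000 variable genes (counts scaled to 10000 per nucleus, without the 7 genes and 52 related ones) gave 10 components, and 20 neighbours were clustered by the Leiden method (resolution 1). Clusters were named by their highest marker list. Those under 0.6 of the log2 level of a list's leading cluster stayed unnamed, a limit set after the data were seen, as did clusters led by mitochondrial genes or markers of another type, or made mostly of likely doublets (the top 0.8% per 1000 nuclei, otherwise kept). Unnamed nuclei were 4736 in Hip and 2533 in PFC.

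Per cell type, the UMIs of each mouse were added up and tested with edgeR (filterByExpr, TMM, quasi-likelihood test) over the 9 mice of a region, or over all 18 libraries for regions, with Benjamini-Hochberg adjustment over all genes tested and a threshold of 0.05. CPM are scaled by TMM, except levels across cell types and marker sums. The 95% intervals were drawn from the SE by the normal distribution and are somewhat narrower than the quasi-likelihood test. Ratios and shares were compared with exact two-sided permutation tests. Replicate libraries differed by more than sampling noise, and the labels name separate mice. Both regions came from the same mice, and deviations from group means correlated over 12714 genes by 0.0269 to 0.163 in the 9 same-mouse pairs and by -0.155 to 0.0688 in 18 other pairs. The scripts were tested on simulated counts.

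The 7 genes, the related lists and the tests were chosen with earlier results of these data known. All 7 genes are named, with the 4 largest rises and 4 largest falls among called related genes per region, of which 1 is not reported here. Alternatives were DESeq2, its size factors, no TMM, no filter on low counts, thinning each library at 1 rate to the lowest mean depth of a region, likely doublets removed, nuclei gated one by one, resolution 2, at least 500 genes, the length and GC trend removed (known for 99.6% of genes), the 6 mice of a pair of groups, the mouse as a block, and each mouse left out. Adding the Hip cluster of low astrocyte markers and removing the length and GC trend from the ratios were alternatives chosen after seeing the data. Tools were Python 3.11.15, numpy 2.4.6, scipy 1.17.1, pandas 2.3.3, leidenalg 0.10.2, igraph 0.11.9, R 4.3.3, edgeR 4.0.16, limma 3.58.1 and DESeq2 1.42.0.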

Additional observations from a re-analysis of the deposited data

Results flagged for a closer look

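The change of *Aqp4* in astrocytes between GF and SPF mice differed between the regions by -1.09 (log2, Hip minus PFC, adjusted p = 0.00078, edgeR), by a test of the difference itself. With nuclei chosen one by one it was -0.63 (adjusted p = 0.0842, edgeR) and no longer passed. *Aqp4* was higher in 3 of 3 GF mice than in any SPF mouse in each region. Its level differed between regions by 0.08 in GF and by 1.16 in SPF mice (log2, Hip minus PFC). Astrocytes of SPF mice were shallower in PFC than in Hip, and the part of depth in this result was not tested.

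The change of *Slc1a2* between GF and SPF mice differed likewise, by -0.67 (log2, Hip minus PFC, adjusted p = 0.0141, edgeR). It no longer passed without likely doublets (-0.32, adjusted p = 0.237), with nuclei chosen one by one (-0.40, adjusted p = 0.0916), without the length and GC trend (-0.40, adjusted p = 0.128, and -0.42, adjusted p = 0.0655, with the mouse as a block), without GF mouse 6 (-0.57, adjusted p = 0.0510) or without SPF mouse 31 (-0.62, adjusted p = 0.0528). *Slc1a2* was higher in 3 of 3 GF mice of PFC than in any SPF mouse, and the groups overlapped in Hip. The part of depth was not tested here either.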

How the results depend on the processing

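Calls in astrocytes of GF against SPF were 3 in Hip and 4 in PFC. With 1 mouse left out at a time they were 2 to 4 and 4 to 4, and those of CGF against SPF 0 to 0 in both. Those of GF against CGF were 3 to 6 in Hip (3 without CGF mouse 17, GF mouse 6, GF mouse 7 or SPF mouse 30) and 4 to 6 in PFC. Those of Hip against PFC were 0 to 1 for GF mice (0 without GF mouse 5, 6 or 7), 3 to 4 for SPF mice and 4 to 6 for CGF mice. The difference between regions kept 1 to 3 calls (1 without GF mouse 6 or SPF mouse 31), and the other cell types 14 to 20 in Hip and 8 to 14 in PFC.

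Without the length and GC trend, GF against CGF in Hip had 3 calls and the other types of Hip 12. *Slc6a11* then turned to 0.48 in GF against CGF of PFC (adjusted p = 0.00984) and to 0.069 in excitatory neurons of GF against SPF of PFC. GF against CGF in PFC had 3 calls without likely doublets and 3 with gated nuclei. With gated nuclei, Hip against PFC in CGF mice had 3 calls, with *Slc1a3* turned to -0.0032, and the difference between regions 0 (4 with no filter on low counts). The causes were not tested. The log2 ratio (GF minus SPF) of *Glul* to *Slc1a2* plus *Slc1a3* in Hip turned from 0.43 to -0.26 (adjusted p = 0.164, exact permutation test) without the length and GC trend. The log2 ratio (GF minus SPF) in PFC was 0.46 for *Slc1a2* to *Slc1a3* (adjusted p = 0.0214, exact permutation test) and 0.40 for *Gja1* to *Gjb6* (adjusted p = 0.0429, exact permutation test) with gated nuclei. With 1 mouse left out, these ratios were 0.33 to 0.49 and 0.04 to 0.40 in PFC and 0.04 to 0.21 and -0.28 to -0.074 in Hip. The share of UMIs in astrocytes was 50.7% in Hip without likely doublets (adjusted p = 0.0429, exact permutation test), and 23.1% in Hip (adjusted p = 0.393, exact permutation test) and 19.02% in PFC (adjusted p = 0.05, exact permutation test, not under the threshold) with gated nuclei. The share of astrocyte nuclei with a UMI, as a mean over the 7 genes, was 30.9% in Hip and 30.2% in PFC at 500 UMIs. At 1000 UMIs it was 41.8% and 41.2%, which left out 842 CGF, 821 SPF and 16 GF astrocytes of PFC.

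With the mouse as a block that pairs both regions, the calls of Hip against PFC were 1 for GF mice, 4 for SPF mice and 6 for CGF mice, and the difference between regions had 3. With the block and without the length and GC trend they were 1, 4, 5 and 2. No paired fit was possible between groups, which hold different mice. Of 2851 values of single genes, 2622 stayed on their side of the threshold, 168 lost a call, 58 gained one and 3 turned to or from a call. The sign changed in 81, nearly all of them without a call.

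In SPF mice of PFC, *Aqp4* rested on 59 to 74 UMIs and *Gjb6* on 41 to 80 per library, which limits the precision there. With 3 mice a group, an exact permutation test of a pair of groups cannot go below p = 0.1.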
